A study of Canis lupus familiaris with 20 samples.

Results

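In the vertebral epiphyseal cartilage of newborn dogs, 108 genes lost expression in control dogs between postnatal day 9 and day 14 and showed little or no such loss in dogs with mucopolysaccharidosis VII (MPS VII). They were chosen by 4 bounds on the expression values themselves, out of 14550 genes with enough reads to test and 24580 genes in the deposited table. Expression was taken as log2 CPM, where CPM is a gene's count scaled to a common library size and so measures its share of the reads. A member had to be lower by at least 1 on this log2 scale, a 2-fold fall, at day 14 than at day 9 in controls, with every control day 14 library below every control day 9 library. Its day 14 minus day 9 difference in MPS VII dogs had to lie above -0.25, and the genotypes had to differ by no more than 1 at day 9. These bounds were met by 111 genes, and 3 of them were dropped because the rule excludes a few named genes, chromosome stretches and the mitochondrial chromosome. All 4 groups and all 20 libraries entered this choice, so the values below describe the genes chosen and test nothing. Without 1 MPS VII day 9 library that stood apart, described below, 40 of the 108 still met the rule.

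The vertebral epiphysis at this age is cartilage that will form the secondary ossification centre. In endochondral ossification, chondrocytes leave their resting state, proliferate, enlarge and mineralise their matrix, and bone then replaces the cartilage. In MPS VII the lysosomal enzyme β-glucuronidase is lacking, glycosaminoglycans accumulate in cells and matrix, and the conversion of vertebral epiphyseal cartilage to bone fails.

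Libraries came from 20 dogs in 4 groups of 5: control dogs at day 9, control dogs at day 14, MPS VII dogs at day 9 and MPS VII dogs at day 14. The MPS VII dogs were homozygous for a naturally occurring missense mutation of GUSB, the gene of β-glucuronidase. Controls were heterozygous, so they carried the same mutation on 1 copy, and no dog group without it was compared. Each library held the combined cranial and caudal epiphyseal cartilage of the T12 vertebra of 1 dog, so each day is a different set of animals and no dog was followed over time. Controls and MPS VII dogs were matched by litter, but the labels do not give the litters or the sex of a dog. Total counts ran from 21419930 to 28028365 per library at day 9 and from 15772761 to 22471728 at day 14, so age and depth moved together. TMM factors ran from 0.76 to 1.02 in control day 9 libraries and from 1.04 to 1.29 in control day 14 libraries. In MPS VII dogs they ran from 0.78 to 1.18 at day 9 and from 0.97 to 1.14 at day 14. A higher factor lowers CPM, so control falls in CPM are larger than falls in the plain share of reads. The rule was not tested without this scaling.

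The table gives Ensembl gene identifiers, and 0 of them could be paired with a gene symbol in the reference used here. Genes are therefore given by position in CanFam3.1 with the exon length, exon count and strand of the table. No functions are given, and cartilage, bone and blood markers could not be looked up to check the tissue. In bulk cartilage, fewer cells of a type and less RNA per cell cannot be told apart.

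One library stood apart from its group, MPS VII day 9 replicate 3. It lay below the other 4 libraries of its group in 82 of the 108 members, or 75.9%, against 33.1% of all tested genes. In the median member it was lower by 1.30 on the log2 scale than the mean of the other 4 (difference -1.30), while the median over all tested genes was 0.04. More than a 2-fold deficit was seen in 64 members, against 11.3% of tested genes. Its median member lay at -1.30 relative to the control day 9 mean, between the control day 14 libraries, which ran from -1.52 to -1.003. In the other 4 libraries of its group this median ran from -0.22 to 0.04.

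This library read as its labels say at most genes that separate the other 19. Of 34 genes that split those libraries by genotype with a gap of at least 1 on the log2 scale, it fell on the MPS VII side in 28. One of them, at chr14:36918913-36947518, had 423.7 CPM in it, against 246.7 to 1124 CPM in the other MPS VII libraries and 0.81 to 16.8 CPM in controls. Of 26 genes that split them by age, it fell on the day 9 side in 23. Why it stands apart in the members was not tested. A low value at MPS VII day 9 makes the day 14 minus day 9 difference less negative, so this library helped genes to meet the rule.

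**Figure D1:**
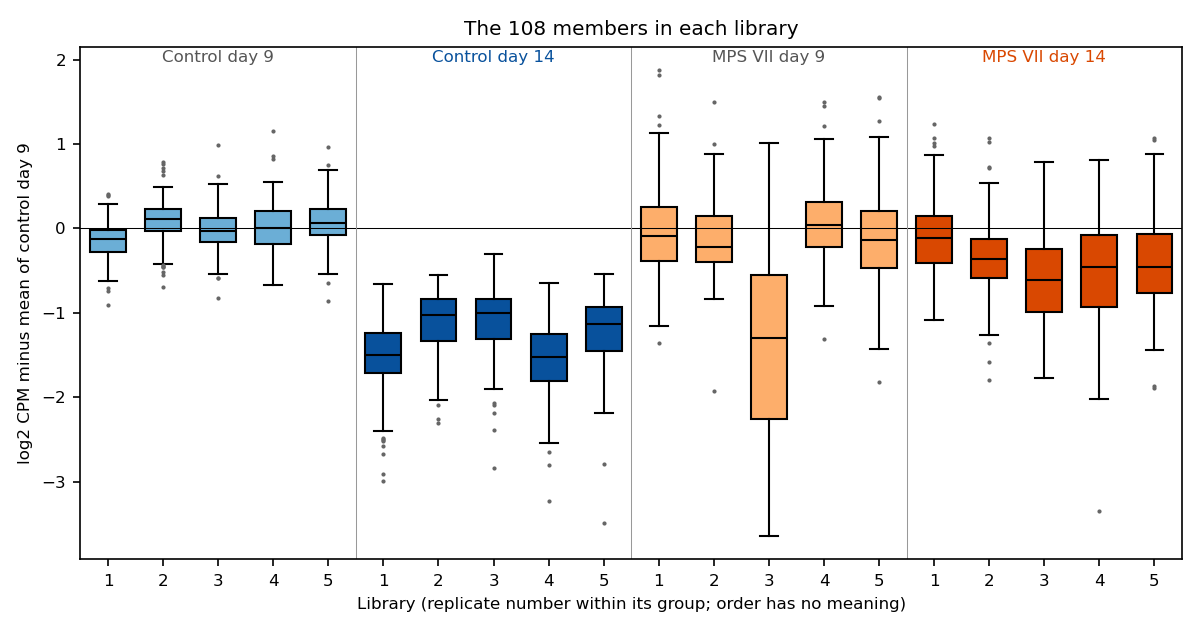
Expression of the 108 members in each of the 20 libraries, as log2 CPM minus the mean of the 5 control day 9 libraries (vertical axis), with libraries by replicate number within their group (horizontal axis). Boxes span the quartiles with the median as a line, whiskers reach up to 1.5 times the box height and dots are members beyond them. Control day 14 medians run from -1.52 to -1.003, MPS VII day 14 medians from -0.62 to -0.11, and MPS VII day 9 replicate 3 lies at -1.30, apart from its group.

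With all libraries, the median member differed by -1.23 between control day 14 and day 9, with a range from -2.18 to -1.001, against -0.05 over all tested genes. In MPS VII dogs the median was -0.12, with a range from -0.25 to 0.90, against -0.06 over all tested genes. Leaving out MPS VII day 9 replicate 3 moved the MPS VII median of the same 108 members to -0.34. The fall was still smaller in MPS VII dogs than in controls in all 108, by a median of 0.94. Without the library, 66 members had an MPS VII difference of -0.25 or less, 25 of them of -0.5 or less, and 0 of -1 or less. The rule itself set a smaller fall in MPS VII dogs for every member. The libraries left in had also chosen the genes, so a smaller fall without replicate 3 is no independent check. Kept expression described fewer of the genes without this library.

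The rule as a whole was met by 50 genes without this library, and 40 of these were among the 108. Over these 40 the MPS VII median was -0.06 with the library and -0.07 without it. The other 68 stood at -0.15 with it and at -0.47 without it. The genes that met the rule either way were lower in level, with a median of 3.94 CPM in control day 9 libraries against 17.9 CPM for the other 68.

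**Figure D2:**
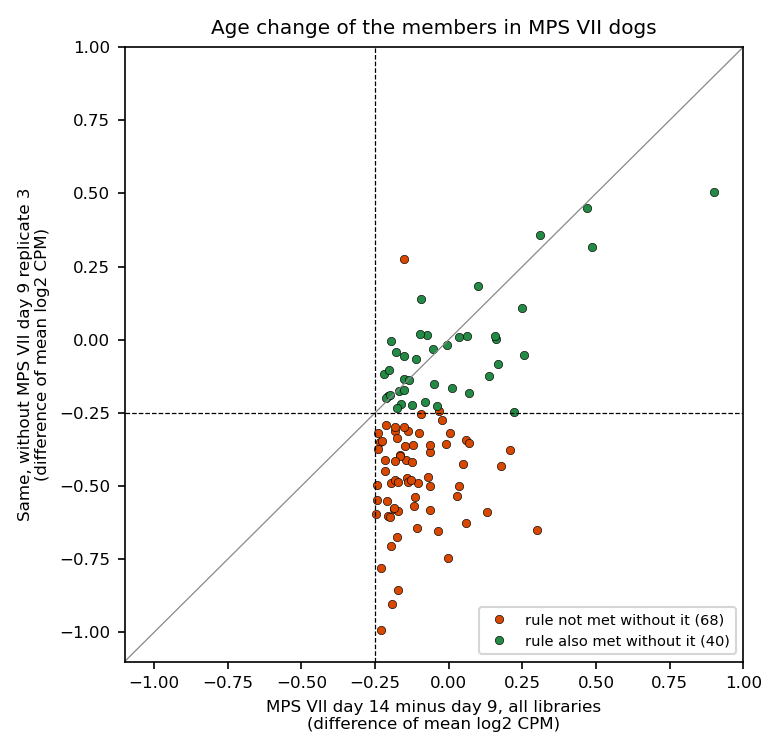
Day 14 minus day 9 difference of mean log2 CPM in MPS VII dogs for each of the 108 members, with all 5 day 9 libraries (horizontal axis) and without MPS VII day 9 replicate 3 (vertical axis). The dashed lines are the bound of -0.25, and the grey line marks equal values. The 40 members in green met the rule either way, and most of the 68 in orange drop below the bound, down to -0.99.

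By the same 2 control bounds 495 genes fell in controls, and the members were 21.8% of them. Of the rest, 72 also fell by at least 1 in MPS VII dogs, 288 lay between -1 and -0.25 there, and 27 were above -0.25 but differed between genotypes by more than 1 at day 9. The rule therefore picked 1 end of a continuous spread. MPS VII day 9 replicate 3 was the lowest of its group in 155 of the 288 genes between the bounds, or 53.8%, and in 8 of the 72 genes that fell in both genotypes, or 11.1%.

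**Figure D3:**
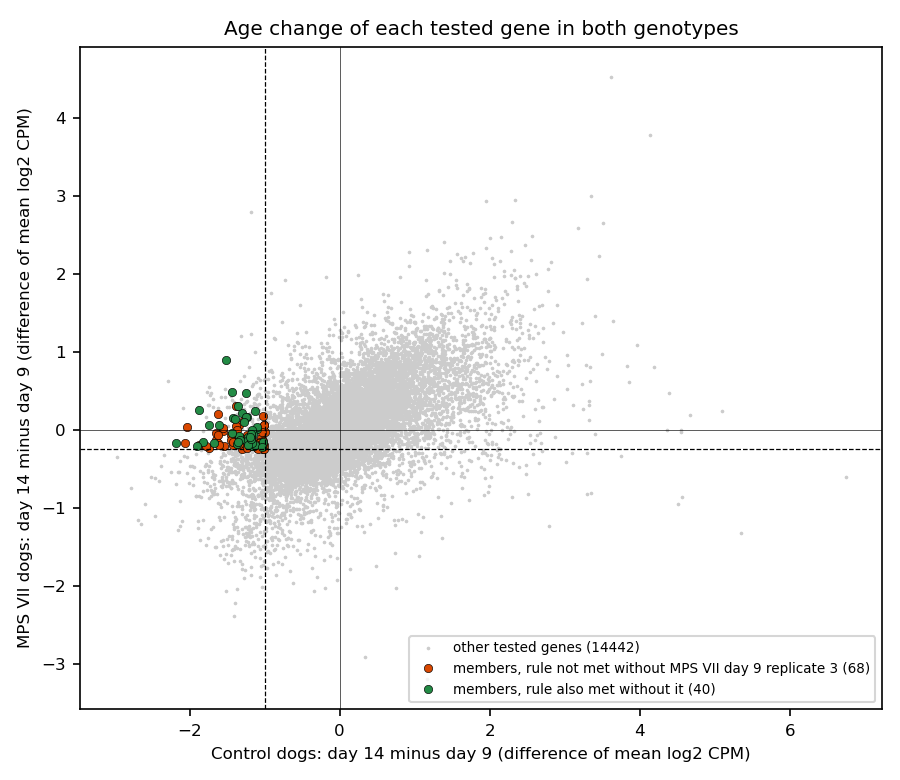
Day 14 minus day 9 difference of mean log2 CPM in control dogs (horizontal axis) and MPS VII dogs (vertical axis) for each of the 14550 tested genes. Dashed lines mark the bounds of -1 and -0.25, grey dots are the 14442 other tested genes, and members lie left of the first bound and above the second, among other genes that missed the separation of control libraries or the day 9 bound, or were excluded. The 40 members in green met the rule also without MPS VII day 9 replicate 3.

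Tests over all genes with edgeR's quasi-likelihood method, Benjamini-Hochberg adjusted at 0.05, are given only as counts, since the rule used each contrast. In controls 105 members were called lower at day 14, where 20.7% of all tested genes were. With age in MPS VII dogs 0 members were called lower, against 9.92% of tested genes, and 0 higher, against 12.7%. Without MPS VII day 9 replicate 3, 23 of the 108 were called lower with age in MPS VII dogs, against 10.5% of tested genes. For the difference of the age change itself, 20 members were called less negative in MPS VII, against 0.825% of tested genes. That count was 39 of 108 without replicate 3, against 1.85%, and 6 to 12 when 1 of 11 other libraries was left out, the fewest without control day 14 replicate 1. No share over all tested genes was computed for the refits without those 11. A loss of calls over all genes and one particular to the members therefore cannot be told apart there.

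The genotype difference at day 14 was largely fixed by the rule. It equals the day 9 difference plus the MPS VII age change minus the control age change, and the rule bounded each of these. Both day 14 groups also entered the choice, so the counts below describe the members and give no separate support. Mean expression was higher in MPS VII dogs in all 108 members, with a median of 0.84 and a range from 0.04 to 2.47, against 0.02 over all tested genes. In 44 members it was at least 2-fold higher. All 5 MPS VII libraries lay above all 5 control libraries in 51 members, against 9.27% of tested genes. The test called 63 members higher, against 11.3% of tested genes, and 0 lower, against 10.7%. Refitted without MPS VII day 9 replicate 3, which also enters the shared estimate of spread, it called 83 higher, against 15.8%.

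Control fallers outside the set were also higher in MPS VII dogs at day 14. The 288 genes between the bounds had a median difference of 0.75, and the 72 that fell in both genotypes had 0.21. A higher day 14 level in MPS VII dogs was therefore shared by most control fallers, and no test here marks it as particular to the members.

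Day 14 MPS VII levels lay between the 2 control ages in most members. Expressed as the share of the control fall that was absent in MPS VII dogs at day 14, the median was 64.6%, with a range from 4.39% to 166%. In 75 members the MPS VII day 14 mean was nearer to control day 9, and in 33 nearer to control day 14. In 16 members it was at or above the control day 9 mean. In 23 members all MPS VII day 14 libraries lay below all control day 9 libraries, against 10.9% of tested genes.

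At day 9, before the control fall, 87 members were lower and 21 higher in MPS VII dogs on the mean, with a median of -0.37 against 0.01 over all tested genes. A deficit of more than 0.5 was seen in 41 members. Without MPS VII day 9 replicate 3 the median was -0.11, 70 members were lower and 38 higher, and the deficit was over 0.5 in 8. The test called 2 members lower, against 2.21% of tested genes, and 1 higher, against 6.18%. All 5 MPS VII libraries lay below all 5 control libraries in 5 members, against 2.82%.

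The 33 members within 0.25 of each other between genotypes at day 9 had a median day 14 difference of 1.05. In 24 of them all MPS VII libraries lay above all controls at day 14, against 9.27% of all tested genes. The 41 with a day 9 deficit over 0.5 had a median of 0.54. In 4 of these 41 the day 14 groups did not overlap, which is near the share over all tested genes. The day 9 difference used for this split is a part of the day 14 difference. Median control age differences were close, -1.18 in the first group and -1.28 in the second. The smaller day 14 difference of the second group thus largely followed from the split. By the split this group was already low at day 9 in MPS VII dogs, in the libraries as deposited, and the rule bounded its later fall there.

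**Figure D4:**
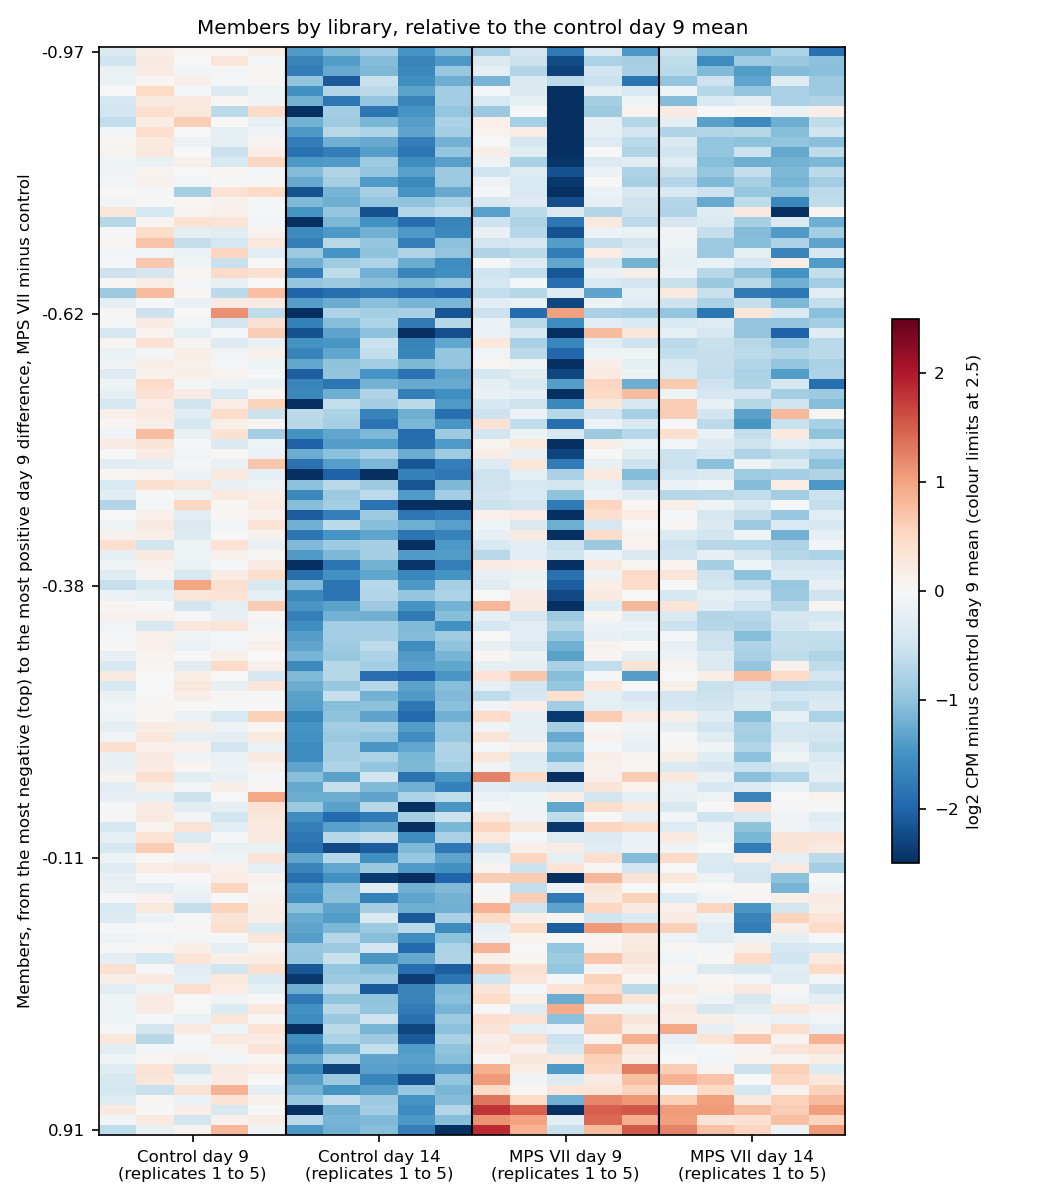
Each row is 1 of the 108 members and each column 1 of the 20 libraries, coloured by log2 CPM minus the control day 9 mean and ordered by the day 9 difference between genotypes, from -0.97 at the top to 0.91 at the bottom. The control day 14 columns are blue throughout. MPS VII day 14 columns are pale blue at the top and white to red at the bottom, and the third MPS VII day 9 column is dark blue in most of the upper rows.

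The 8 members of highest level in control day 9 libraries included 1 gene far above the rest. ENSCAFG00000002589, at chr12:32763693-32847276 on the minus strand with 3627 bases in 40 exons, had 6785 CPM per kilobase of exon in control day 9 libraries. The next highest per kilobase among these 8 was the gene on the X chromosome below, with 153.2. Control day 9 libraries of the chromosome 12 gene read 23120, 26250, 24420, 25410 and 23850 CPM, and control day 14 libraries 11670, 14650, 12420, 9561 and 13130 CPM. MPS VII libraries read 17390, 19790, 5457, 22310 and 14320 CPM at day 9 and 16750, 12700, 16180, 11340 and 15680 CPM at day 14. The control ages were far apart, and all 5 MPS VII day 9 libraries lay below the lowest control day 9 library.

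Its group means were 24611 ± 1239 and 12285 ± 1877 CPM (SD, n = 5) in controls at day 9 and day 14, and 15853 ± 6518 and 14529 ± 2372 CPM in MPS VII dogs. The MPS VII groups overlapped each other and the control day 14 group. Of its control fall, 23.6% was absent in MPS VII dogs at day 14. The MPS VII age difference was 0.01 on the log2 scale, and -0.32 without replicate 3, so it was not among the 40.

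A plain example of kept expression lay at chr16:12523396-12538428, plus strand, 4200 bases in 3 exons. Controls had 339.3, 319.0, 355.1, 554.8 and 393.0 CPM at day 9 and 139.5, 185.9, 310.8, 166.4 and 179.2 CPM at day 14. MPS VII libraries read 382.2, 252.3, 356.0, 471.3 and 380.5 CPM at day 9 and 383.6, 385.5, 397.6, 170.9 and 361.0 CPM at day 14. Here 4 of the 5 MPS VII day 14 libraries stayed above every control day 14 library, and replicate 4 fell among the controls. The MPS VII difference was -0.15, and -0.13 without day 9 replicate 3. The control difference of -1.02 was close to the bound, and the control ages were parted only by 319.0 against 310.8 CPM. The difference of the age change was not called for this gene.

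At chr22:51157797-51374705, plus strand, 1857 bases in 11 exons, MPS VII levels were high at both ages. The control libraries held 253.0, 269.7, 245.9, 338.8 and 279.8 CPM at day 9 and 92.6, 144.4, 193.5, 75.8 and 146.7 CPM at day 14. Readings in MPS VII dogs were 369.4, 355.7, 135.6, 430.7 and 343.1 CPM at day 9 and 307.6, 307.2, 260.1, 246.5 and 264.3 CPM at day 14. The day 14 groups did not overlap, with a difference of 1.16, and the MPS VII day 14 mean of 277.1 CPM stood beside 277.4 CPM in control day 9 libraries. Replicate 3 lay far below the other 4 MPS VII day 9 libraries, which were above all controls of that age. Without replicate 3 the MPS VII age difference of this gene therefore went from -0.14 to -0.41.

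The gene at chr6:26742853-26948550, minus strand, 2523 bases in 11 exons, went the same way. Control day 9 libraries read 188.8 to 236.2 CPM with a median of 206.0, and control day 14 libraries 59.8 to 103.0 CPM with a median of 99.1. MPS VII dogs read 283.1, 228.0, 87.6, 342.1 and 253.7 CPM at day 9 and 216.3, 189.2, 153.0, 192.5 and 174.5 CPM at day 14. No day 14 MPS VII library reached down to the controls, the difference was 1.14, and the MPS VII age difference went from -0.24 to -0.55 without replicate 3.

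At chr16:40888678-40954709, plus strand, 1912 bases in 6 exons, the library in doubt weighed less. Control libraries read 200.3, 162.3, 256.2, 269.0 and 200.7 CPM at day 9 and 73.6, 118.0, 119.1, 99.2 and 75.1 CPM at day 14. MPS VII libraries read 157.9, 179.0, 126.4, 192.8 and 193.4 CPM at day 9 and 147.8, 130.3, 125.6, 153.2 and 172.9 CPM at day 14. The lowest MPS VII day 14 library lay above the highest control of that age, and the MPS VII difference was -0.21 with replicate 3 and -0.29 without it.

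The other members of the highest 8 had genotype differences of 0.31, 0.41 and 0.41 at day 14, beside 0.24 for the chromosome 12 gene. At chr11:68412813-68546481, 6714 bases in 70 exons, group means were 948.2 and 471.1 CPM in controls and 645.2 and 584.7 CPM in MPS VII dogs. At chrX:74513303-74536455, 3579 bases in 11 exons, they were 548.3 and 262.5 CPM in controls and 404.6 and 338.3 CPM in MPS VII dogs. The gene at chr9:56183863-56218670, 2472 bases in 5 exons, had 326.2 and 159.1 CPM in controls and 263.4 and 211.2 CPM in MPS VII dogs. In all 3 between 30.7% and 39.7% of the control fall was absent, and without replicate 3 their MPS VII differences were -0.43, -0.35 and -0.54.

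The deepest control fall was found in ENSCAFG00000004836, at chr22:9860291-9865272 on the minus strand, 4313 bases in 3 exons. Controls had 3.98, 4.05, 3.44, 4.52 and 3.22 CPM at day 9 and 0.56, 0.86, 0.45, 1.13 and 1.04 CPM at day 14. MPS VII libraries read 2.63, 3.26, 2.13, 4.51 and 1.75 CPM at day 9 and 2.85, 2.95, 2.01, 2.07 and 2.23 CPM at day 14. The control difference was -2.18 and the MPS VII difference -0.17, and -0.23 without replicate 3. Every MPS VII day 14 library lay above every control day 14 library and below every control day 9 library, so 70.0% of the fall was absent.

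Second in depth was the gene at chr4:73787829-73808924, plus strand, 960 bases in 6 exons. The control libraries held 167.2, 188.6, 191.9, 219.2 and 206.9 CPM at day 9 and 52.3, 67.9, 36.9, 33.2 and 48.6 CPM at day 14. The MPS VII libraries held 298.6, 304.3, 25.4, 342.1 and 244.3 CPM at day 9 and 231.5, 178.8, 141.1, 94.6 and 192.9 CPM at day 14. Its day 14 difference was 1.79 with no overlap. The 4 other day 9 libraries all lay above the day 14 libraries, and the MPS VII difference went from -0.17 to -0.85 without replicate 3, against -2.07 in controls.

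At chr24:18453942-18460232, plus strand, 2199 bases in 14 exons, the control fall was 1.74 (difference -1.74). Control libraries read 55.4, 94.9, 117.0, 114.6 and 85.8 CPM at day 9 and 16.1, 41.5, 31.5, 24.0 and 28.8 CPM at day 14. MPS VII dogs had 62.9, 52.7, 25.8, 107.4 and 57.4 CPM at day 9 and 68.0, 70.3, 50.8, 70.8 and 38.9 CPM at day 14. At day 14, 4 of 5 MPS VII libraries exceeded all controls, and the MPS VII difference was 0.07, or -0.18 without replicate 3.

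Among members with at least 2 CPM in MPS VII day 14 libraries, the gene at chr13:8610233-8755897 on the minus strand, 3434 bases in 6 exons, had the most positive MPS VII age difference, 0.49. Controls had 3.77, 3.24, 3.66, 3.25 and 2.42 CPM at day 9 and 1.45, 1.92, 0.79, 0.75 and 1.12 CPM at day 14. Values in MPS VII dogs were 4.18, 5.18, 1.501, 3.103 and 1.20 CPM at day 9 and 3.26, 3.62, 5.58, 4.55 and 2.33 CPM at day 14. The MPS VII ages overlapped widely, the difference was 0.32 without replicate 3, and the test did not call it. At day 14 all MPS VII libraries lay above all controls.

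The gene at chr9:20820401-20849683, plus strand, 1632 bases in 9 exons, had both a deep control fall, -1.88, and a positive MPS VII difference, 0.26. The control libraries held 2.44, 4.01, 5.99, 4.29 and 4.79 CPM at day 9 and 1.94, 2.21, 1.08, 0.52 and 0.52 CPM at day 14. Against these, MPS VII libraries had 2.81, 2.92, 1.15, 6.02 and 4.27 CPM at day 9 and 4.59, 3.81, 3.13, 4.19 and 2.72 CPM at day 14. The MPS VII ages overlapped, and without replicate 3 the difference was -0.05. At the other 2 loci ranked by a positive MPS VII difference alone, chr9:10081637-10086581 and chr4:43280536-43431144, the values were 0.25 and 0.22, and 0.11 and -0.25 without replicate 3.

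The largest day 14 difference, 2.47, was at chr23:31322037-31371013, minus strand, 6235 bases in 11 exons. Control libraries read 2.48, 3.42, 4.14, 6.90 and 3.58 CPM at day 9 and 1.37, 1.63, 1.82, 1.13 and 0.26 CPM at day 14. Their MPS VII counterparts read 14.4, 7.18, 2.61, 6.77 and 11.4 CPM at day 9 and 9.23, 6.47, 5.69, 3.60 and 8.24 CPM at day 14. Expression was higher in MPS VII dogs at both ages, by 0.91 at day 9, and without replicate 3 that day 9 difference was 1.27, outside the rule's bound.

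At chr20:54175986-54178306, minus strand, 1597 bases in 6 exons, the same was seen more sharply. Controls had 10.9, 9.18, 10.4, 7.07 and 9.18 CPM at day 9 and 1.53, 3.94, 5.05, 3.05 and 5.53 CPM at day 14. The MPS VII libraries held 32.7, 26.4, 0.87, 26.2 and 27.5 CPM at day 9 and 19.5, 19.5, 16.0, 14.3 and 19.3 CPM at day 14. Replicate 3 was the lowest of all 20 libraries, and the other 4 were all above every other library. Without it, the MPS VII age difference went from 0.30 to -0.65 and the day 9 difference from 0.62 to 1.59, so the gene then met neither bound.

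The gene at chr24:17552937-17681516, plus strand, 2852 bases in 24 exons, kept its level either way. The control libraries held 2.51, 4.18, 3.08, 3.89 and 3.36 CPM at day 9 and 1.25, 1.73, 1.02, 0.66 and 1.64 CPM at day 14. MPS VII dogs had 7.13, 3.13, 2.61, 3.90 and 5.75 CPM at day 9 and 6.20, 5.57, 3.35, 4.82 and 4.12 CPM at day 14. The day 14 difference was 1.90 without overlap, and the MPS VII age difference 0.16, or 0.01 without replicate 3. At chr24:24396263-24399928, 1500 bases in 2 exons, group means were 4.82 and 2.21 CPM in controls and 9.21 and 7.35 CPM in MPS VII dogs, and this was the 1 member called higher at day 9.

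**Figure D5:**
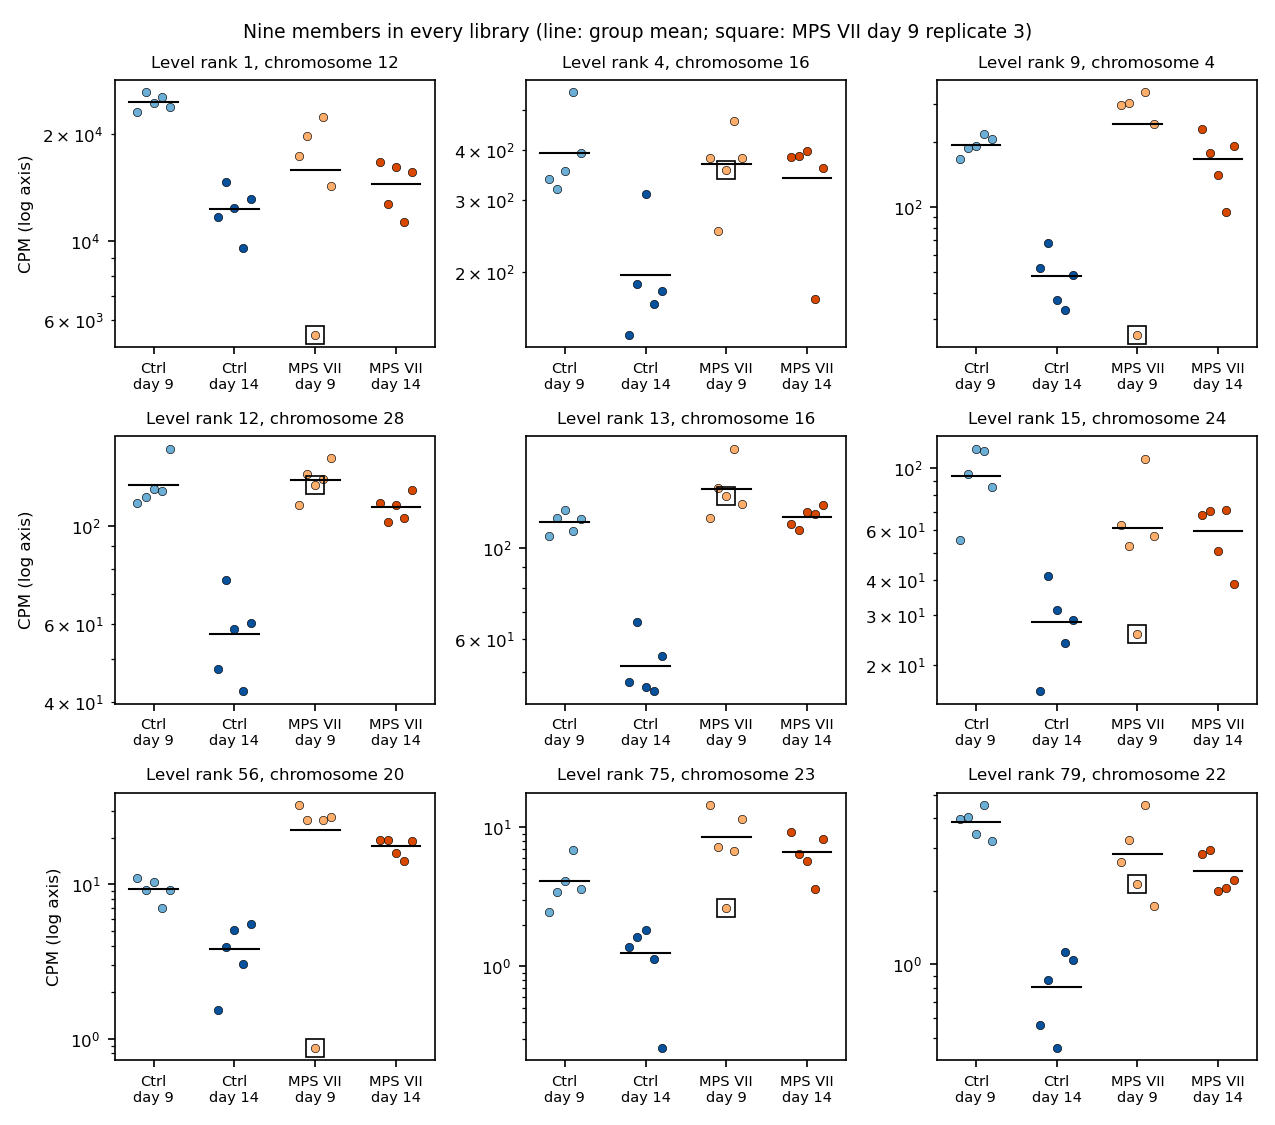
CPM on log axes in every library (points) for 9 members, each panel named by chromosome and by rank of level among the 108 in control day 9 libraries. Horizontal lines are group means of 5 libraries, and squares mark MPS VII day 9 replicate 3. It lies below all other libraries in the panels of rank 1, 9 and 56 (5457, 25.4 and 0.87 CPM) and within its group in those of rank 12 and 13.

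Of the 40 members that met the rule with and without replicate 3, 6 more are given next, chosen after their values were seen. They belong to the 11 of the 40 with at least 10 CPM in control day 9 libraries. Those of the 11 not shown, at chr27:38175931-38181763, chr28:8837752-8949488 and chr27:1985782-1994809, had smaller day 14 differences than the 6, of 0.70, 0.67 and 0.81. The day 14 groups overlapped at both chromosome 27 genes. At chr28:8209707-8481770, plus strand, 7346 bases in 34 exons, controls read 112.9, 116.1, 121.3, 120.0 and 149.8 CPM at day 9 and 47.3, 75.5, 58.6, 42.2 and 60.3 CPM at day 14. MPS VII dogs read 111.4, 130.9, 124.0, 127.8 and 142.8 CPM at day 9 and 112.5, 102.0, 111.5, 104.4 and 120.9 CPM at day 14. The 4 groups thus formed 2 levels, with control day 14 alone at the lower one, and 85.7% of the control fall was absent.

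At chr16:44882118-45066154, plus strand, 3811 bases in 23 exons, controls read 107.2, 118.7, 123.8, 110.3 and 117.6 CPM at day 9 and 47.3, 66.2, 46.0, 44.9 and 54.8 CPM at day 14. MPS VII dogs read 118.3, 140.0, 134.3, 174.6 and 127.8 CPM at day 9 and 114.3, 110.5, 122.2, 120.8 and 127.7 CPM at day 14. MPS VII day 14 libraries stood within the range of control day 9 libraries or just above it, and the age difference was -0.21 in MPS VII dogs against -1.17 in controls.

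On the X chromosome 2 members repeated this at lower levels. At chrX:1481543-1512941, plus strand, 4010 bases in 9 exons, controls read 21.2, 22.6, 16.1, 23.1 and 14.6 CPM at day 9 and 3.55, 10.2, 10.3, 3.70 and 5.36 CPM at day 14. MPS VII dogs read 13.6, 23.8, 18.5, 28.2 and 19.8 CPM at day 9 and 18.4, 19.8, 18.2, 15.3 and 18.3 CPM at day 14. The day 14 groups were separate, with a difference of 1.57, and the MPS VII ages overlapped.

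At chrX:33336418-33465096, plus strand, 2341 bases in 10 exons, group means were 14.1 ± 3.09 and 5.70 ± 2.10 CPM in controls and 15.1 ± 4.14 and 14.1 ± 2.57 CPM in MPS VII dogs (SD, n = 5). The day 14 difference was 1.35 without overlap. At chr13:48544668-48570962, plus strand, 3889 bases in 9 exons, the means were 14.0 ± 2.17 and 6.27 ± 1.89 CPM in controls and 16.6 ± 5.05 and 15.3 ± 2.24 CPM in MPS VII dogs. Its day 14 difference was 1.31, again without overlap.

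At chr7:67498715-67528116, minus strand, 1974 bases in 16 exons, replicate 3 stood above its group instead. Controls read 20.8, 25.5, 22.6, 17.9 and 27.0 CPM at day 9 and 7.86, 13.9, 11.4, 6.66 and 9.94 CPM at day 14. MPS VII dogs read 22.3, 18.04, 42.8, 21.6 and 21.0 CPM at day 9 and 26.2, 17.1, 18.6, 27.2 and 24.7 CPM at day 14. The MPS VII age difference was -0.09 with replicate 3 and 0.14 without it, and the day 14 difference was 1.21 without overlap.

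Over the 40, the median day 14 difference was 1.07 and the median share of the control fall absent was 82.2%, against 0.70 and 58.4% in the other 68. The MPS VII day 14 mean was nearer to control day 9 in 37 of the 40 and in 38 of the 68. All MPS VII libraries lay above all controls at day 14 in 22 of the 40 and in 29 of the 68. The selection of the 40 used these libraries too, so the contrast describes them and is not tested.

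The members were spread over 32 chromosomes, with 9 on chromosome 20, 8 on chromosome 9, 7 on the X chromosome and 6 each on chromosomes 1, 5 and 16. The strand was plus for 51 and minus for 57. Summed exon length had a median of 2155.5 bases, against 2312 over all tested genes, and exon number a median of 8 against 9. A single exon was annotated for 17 members, or 15.7%, against 8.14% of tested genes, and over 5000 bases of exon for 8.33% against 17%. Levels were ordinary, with a median of 10.8 CPM in control day 9 libraries against 12.2 CPM over all tested genes.

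A pair of members were neighbours within 1 stretch of chromosome 1. They lie on the minus strand at chr1:71678113-71678185 and chr1:71678349-71678408, are single exons of 73 and 60 bases, and are so close that reads may be shared between them, so their counts are uncertain. Their control means were 1.53 and 0.52 CPM for the first and 0.92 and 0.38 CPM for the second, and their MPS VII means were 1.72 and 1.85 CPM and 0.91 and 0.93 CPM. Both met the rule without replicate 3.

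On chromosome 6 the neighbouring members at chr6:39508622-39533753 and chr6:39667823-39672638, both on the minus strand, fell by 1.22 and 1.21 in controls (differences -1.22 and -1.21). Their MPS VII day 14 means of 16.2 and 45.6 CPM lay nearer to the control day 14 means of 12.3 and 38.3 CPM than to the control day 9 means of 29.4 and 86.9 CPM. Neither met the rule without replicate 3.

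The libraries of a group were not alike for the members. Control day 14 replicates 1 and 4 were the lowest of their group in 39 and 42 members, with medians of -1.5 and -1.52 relative to the control day 9 mean, against -1.02, -1.003 and -1.13 in the others. Among MPS VII day 14 libraries, replicate 1 was the highest in 57 members with a median of -0.11, and the others stood at -0.37, -0.62, -0.45 and -0.45. Even the lowest of these lay above the highest control day 14 median. Between 35 and 73 of the 108 members lay below the lowest control day 9 library in a given MPS VII day 14 library.

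Genes close to the bounds showed how continuous the selection was. Just inside the bound on the control fall were members at chr20:13617196-13619346 and chr20:58068001-58083107, with -1.001 and -1.007, and just outside it genes at chrX:121173097-121174224 and chr5:82202054-82204373, with -0.996 and -0.992. Just inside the MPS VII bound were chrX:12287946-12289247 and chr6:26742853-26948550, with -0.248 and -0.244, and just outside it chr3:91530066-91533157 and chr1:36869146-36977469, with -0.252 and -0.258. The member at chrX:12287946-12289247 had the smallest absent share of the control fall, 4.39%, with means of 35.7 and 17.6 CPM in controls and 23.8 and 18.7 CPM in MPS VII dogs.

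For the separation of the control ages, the members with the narrowest gaps were at chr18:46072164-46075383 and chr1:71678349-71678408, by 0.01 and 0.03 on the log2 scale. Genes at chr6:31760111-31760398 and chr4:36490578-36551942 missed it, each by -0.01. At day 9 the members with the largest MPS VII deficit were at chr18:45998609-46006282 and chr18:52439604-52537623, with -0.97 and -0.95, and these were the 2 called lower at that age. Just outside lay chr9:20897976-20898569 and chr6:38229594-38236866, with -1.002 and -1.01. On the higher side the members at chr23:31322037-31371013 and chr24:24396263-24399928 had 0.91 and 0.84. Outside it, chr14:22989822-23153321 and chr8:71644322-71718825 had 1.07 and 1.09, and both were higher in MPS VII dogs at day 14, by 2.80 and 2.88.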

How the data were processed

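RNA of epiphyseal cartilage from 20 dogs was sequenced as stranded mRNA libraries with paired-end reads and mapped to CanFam3.1 with Ensembl gene models, per the labels' protocols. STAR 2.4.0j, HTSeq, edgeR, CASAVA 1.8.2 and bcl2fastq are named in the submitters' processing notes with no stated role. Whether counting used strand, and how multiply mapped reads were handled, is not given in the sources used here. The authors deposited 1 table of raw counts per gene with exon length. Between 65.2% and 76.4% of counts of at least 1 and below 200 in a library were even, the reason for which was not tested, so counting error may be larger than the counts imply. P-values measure the spread between libraries of different dogs.

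From the counts, edgeR 4.0.16 in R 4.3.3 was used for filtering (filterByExpr on 4 groups, which dropped 10030 genes holding 0.0413% of counts), TMM scaling and log2 CPM with a prior count of 2. Differences are of group means of log2 CPM. CPM values are scaled by TMM. Quasi-likelihood tests were fitted on all 20 libraries with 1 mean per group, without covariates, and adjusted over 14550 genes. The alternatives were DESeq2 1.42.0, other scalings, filters and prior counts, removal of an exon length trend, thinned and halved counts, and each library left out. Named members were the 8 of highest level, 6 of deepest control fall among those with at least 2 CPM in control day 9 libraries, 5 of most positive MPS VII difference and 5 of largest day 14 difference without overlap among those with at least 2 CPM in MPS VII day 14 libraries, neighbouring members and those next to each bound. Further ones are said to be chosen after their values were seen. The members and lists were chosen with earlier results of these data known. Planned gene lists and cell type markers were by symbol and could not be used. No sequences are shown, since no genome of this build was used here. The code was tested on simulated data.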

Additional observations from a re-analysis of the deposited data

Results flagged for a closer look

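In groups of 5 libraries, a library was set aside for a closer look where its gap to the next value, over the range of its group on the log2 scale, passed Dixon's 95% critical value. Chance gives about 1 such library in 20 groups where genes are not chosen by their values. Here 120 groups of 30 described genes were looked at, and these genes were chosen by their values. A low value at MPS VII day 9 helped a gene to meet the rule, so that rate is no yardstick for the counts below. There were 14 such values, all low ones, and 11 were MPS VII day 9 replicate 3, which is the library that stands apart.

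In that library the values were 87.2 CPM at chr11:68412813, 65.9 CPM at chr9:56183863, 135.6 CPM at chr22:51157797 and 25.4 CPM at chr4:73787829. They were 0.593 CPM at chr8:69102644, 0.869 CPM at chr20:54175986, 0.395 CPM at chr4:43280536 and 10.6 CPM at chr6:39508622. They were 2.53 CPM at chr18:46072164, 7.59 CPM at chrX:12287946 and 3.56 CPM at chr18:52439604. The reason was not tested.

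The other 3 values stood in other libraries. At chr16:12523396 MPS VII day 14 replicate 4 had 170.9 CPM, while the other 4 had 361.0 to 397.6 CPM. At chr23:31322037 control day 14 replicate 5 had 0.259 CPM, against 1.13 to 1.82 CPM. At chr18:45998609 control day 9 replicate 1 had 37.7 CPM, against 49.5 to 54.3 CPM.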

How the results depend on the processing

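Which genes met the rule depended on the libraries and on the processing. Leaving out each library in turn gave 50 to 151 genes, 50 without MPS VII day 9 replicate 3. Group medians in place of means, an alternative chosen after seeing the data, gave 74, with 44 shared. The other settings gave 101 to 114 genes, but not the same ones: of the 108, 74 met the rule with the exon length trend removed, 86 with thinned counts and 87 with halved counts. Members called with age in MPS VII were 0, 1 with the exon length trend removed, and 0 to 23 with each library left out. By genotype at day 9 they were 3, 5 with DESeq2, 0 with only the 2 groups compared, and 1 to 8 with each library left out: 1 without control day 9 replicate 2 or 3 or MPS VII day 9 replicate 5, and 8 without MPS VII day 9 replicate 3. For the difference of the age change they were 20, 46 with DESeq2, and 6 to 39 with each library left out (39 without MPS VII day 9 replicate 3). This last count was 8, 8, 8 and 9 without control day 9 replicates 2 to 5, 6, 7 and 11 without control day 14 replicates 1, 4 and 5, and 8, 11, 11 and 12 without MPS VII day 14 replicates 1, 2, 4 and 5. Shares over all tested genes were computed only for the main fit and for the fit without MPS VII day 9 replicate 3. The other counts therefore do not show whether the members moved more than tested genes in general. The cause of these moves was not tested. For 30 described genes, the age difference in controls kept its sign in all 390 alternative values, and that in MPS VII dogs, which the test called for 0 members, changed sign in 40 of 390, 7 of them without MPS VII day 9 replicate 3. No paired analysis was possible because the labels give no litter or shared number.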
